A study of Mus musculus with 18 samples.

Results

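Cytosine methylation is written, copied and erased by a small family of enzymes, and 7 of its genes (Dnmt1, Uhrf1, Dnmt3a, Dnmt3b, Tet1, Tet2 and Tet3) were examined here, chosen by name out of 21938 protein-coding genes of the GENCODE vM21 annotation (mouse build mm10). For each gene, peaks of 2 histone marks were collected over its locus, taken as the gene body plus 10 kb beyond either end. The 8 chromatin immunoprecipitation (ChIP-seq) libraries came from bone marrow of adult C57BL6 mice, with 2 libraries per mark and cell type. Erythroblasts (ERY), the nucleated precursors of red cells, had been sorted as Ter119+, CD44+ cells of low forward scatter, and immature megakaryocytes (iMK), precursors of platelet-forming cells, as Ter119-, Sca1-, CD41+, CD61+, cKit- cells, and both sorts left out cells with CD4, CD8, IL7Ra, CD11b, Ly6g or CD45R on their surface. Neither group carried a treatment, a transgene or an engineered allele. Another 10 samples were inputs and were not used here. The labels do not tie replicates to animals, so p-values measure the spread between these libraries, which may be technical.

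H3K4me3, trimethylation of lysine on histone H3, marks promoters, and H3K27ac, acetylation of the same histone, marks active promoters and enhancers. DNMT3A and DNMT3B place methyl groups on unmethylated CpG sites, and DNMT1, guided by UHRF1 to newly replicated DNA, copies the pattern to the daughter strand. TET1, TET2 and TET3 oxidise the methyl group as a first step of its removal. In blood, DNMT3A and TET2 are best known for limiting the expansion of stem and progenitor cells, and erythroblasts are known to lose methylation across the genome as they mature.

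The lists held 21768 to 25750 H3K27ac peaks and 6275 to 13222 H3K4me3 peaks. Mean H3K27ac peak width was 2992 and 2980 bp in ERY replicates 1 and 2, and 1873 and 2147 bp in the libraries labelled iMK. For H3K4me3, iMK replicate 2 stood apart with 33.8 Mb covered, against 9.02 to 16.0 Mb in the other libraries. Promoters of 12 erythroid marker genes were called for H3K27ac in 12 of 12 cases in both ERY libraries and in 2 of 12 in both libraries labelled iMK. Of 16 megakaryocyte markers, 4 were called in each ERY library and 4 and 5 in the libraries labelled iMK. Their H3K27ac coverage summed to 196 and 185 percentage points in ERY, and to 90.8 and 138 in the libraries labelled iMK. Of these loci, 9 and 10 were at 0 in ERY, against 6 and 5 in the others. Of 2 defining genes, Itga2b (CD41) had 16.8% and 3.80% coverage in ERY replicates 1 and 2. Itga2b had no H3K27ac peak in the libraries labelled iMK, and Pf4 had none in either cell type. Itgb3 (CD61), the other integrin of the sort, had 5.82% and 8.73% in the libraries labelled iMK and 0% in both ERY libraries. Of 13 myeloid markers, 1 and 0 promoters were called in ERY replicates 1 and 2, and 10 and 12 in the libraries labelled iMK. Their summed locus coverage was 31.0 and 13.6 percentage points in ERY against 267 and 491 in the libraries labelled iMK, and 9 and 10 of the 13 loci were at 0 in ERY, against 1 and 0. Of 7 lymphoid markers found in the annotation, 0 were called in ERY against 2 in each library labelled iMK. Every value below that is higher in the libraries labelled iMK has the same direction between cell types as these myeloid markers, and their part in it was not tested. From replicate 1 to replicate 2 of iMK the myeloid sum rose, as did H3K27ac coverage of Tet2 (5.91% to 9.86%), and that of Dnmt3a fell (4.36% to 3.58%). From 2 libraries nothing can be drawn about a relation to the myeloid sum.

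By the test of H3K27ac coverage the 7 genes came out as follows. Tet3 had far more of its locus covered in ERY, Dnmt1, Dnmt3a and Tet2 had more covered in the libraries labelled iMK, and for Uhrf1 and Dnmt3b the difference did not pass the test. Tet1 had no H3K27ac peak in any of the 4 libraries and was not tested. Locus coverage, the percent of the locus lying under peaks, was compared by limma's moderated test over every gene that any of the 4 libraries covered, and p-values were adjusted by the Benjamini-Hochberg method and called under 0.05. Of the 6 members with a peak, 1 passed as higher in ERY and another 3 with more in the libraries labelled iMK, beside 22.0% and 17.2% of the 14467 genes tested. The 3 became 1 when any single library was left out, as given for each gene below. A locus with peaks in only 1 cell type entered the test through that cell type alone. Both ERY libraries lay above both libraries labelled iMK in 2 members (Tet3 and Uhrf1), beside 41.1% of the genes tested, and both libraries labelled iMK lay above both ERY libraries in 3 members (Dnmt1, Dnmt3a and Tet2), beside 31.3%. The median difference over the 6 members was -2.22 percentage points (ERY minus iMK), and over all genes tested 0.599.

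**Figure D1:**
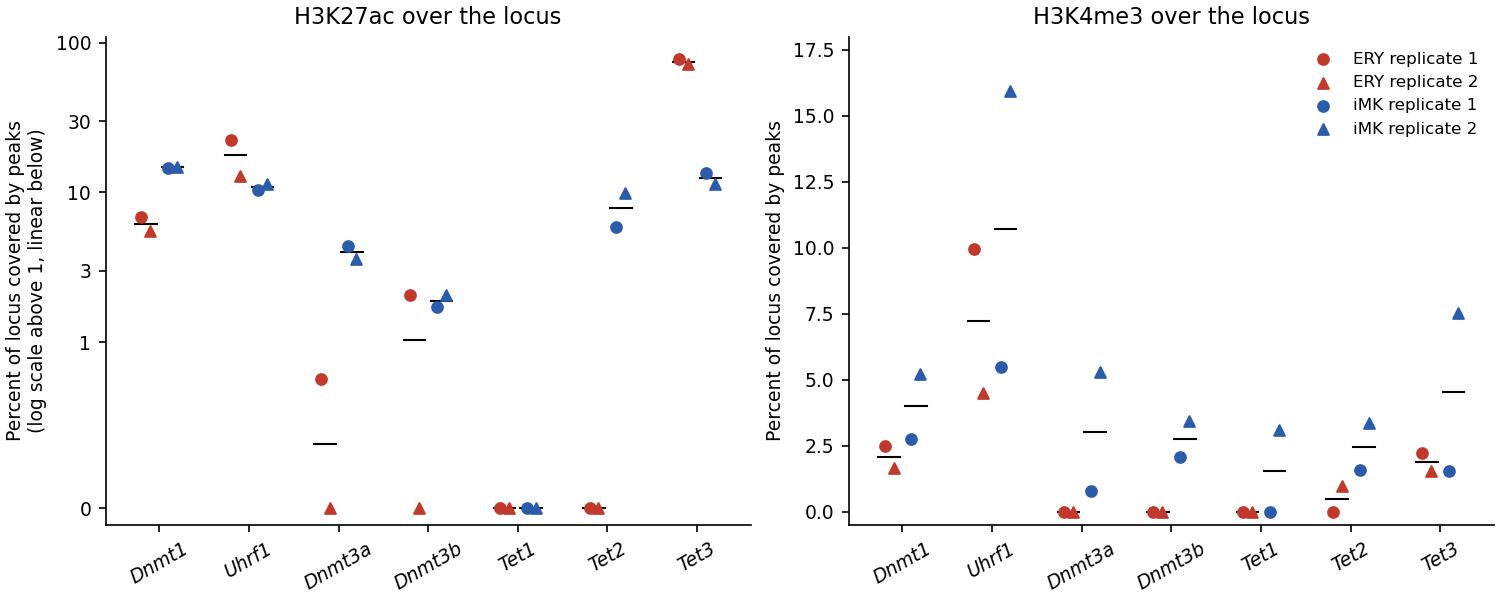
Percent of each locus (gene body plus 10 kb beyond either end) covered by H3K27ac peaks (left, log scale above 1 and linear below) and by H3K4me3 peaks (right, linear), 1 point per library, red for ERY and blue for iMK, with replicate 1 drawn as circles and replicate 2 as triangles, black lines for the mean of 2 libraries. Tet3 stands at 77.7% and 72.5% in ERY for H3K27ac, and iMK replicate 2 is the highest H3K4me3 point at every gene.

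Tet3 was the locus with the widest H3K27ac domain among the 7 genes. TET3, a dioxygenase that oxidises methylated cytosine, is encoded on chromosome 6 (83362373 to 83459084, minus strand). H3K27ac peaks covered 77.7% and 72.5% of the locus in ERY replicates 1 and 2, and 13.5% and 11.3% in the libraries labelled iMK. The ERY values lay above both others with no overlap. The means were 75.1% ± 3.64 and 12.4% ± 1.58 (SD, n = 2 each), a difference of 62.7 percentage points (limma SE 3.12, adjusted p = 0.0065). By size this was number 145 among the 7891 genes with a higher mean in ERY, and 149 of the 21938 genes, Tet3 included, had at least as much covered in their lower ERY library. The difference was 66.2 points with no flank and 56.7 points without peaks at neighbouring promoters, and passed both times. It did not pass when only peaks with at least the median fold of their list were kept (53.3 points, SE 10.5, limma adjusted p = 0.059).

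The ERY domain lay over the body of the gene. In ERY replicate 1 a single peak of 52000 bp (chr6:83368001-83420000) ran from the intron before exon 3 into the last exon of Tet3-202. This transcript has 11 exons, and the peak was number 8 by width among 25750 peaks of that list. In replicate 2 the same stretch was split into several peaks, of which the widest measured 26800 bp (chr6:83368001-83394800) and was number 62 of 21768. The widest Tet3 peaks in the libraries labelled iMK measured 3000 and 2600 bp. The fold over control of these ERY peaks, 4.23 and 3.60, was above that of 71.5% and 69.9% of the peaks in the same list. ERY peaks were wider across the genome too, as given above, and the part of that in the Tet3 value was not tested.

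At the upstream start site of Tet3 the H3K27ac peaks that ranked high in their lists were those of the libraries labelled iMK. Tet3-203 begins at position 83456392 and encodes the long form of 1803 residues, which carries the CXXC domain that binds CpG-rich DNA, and Tet3-202 begins at 83441675 and encodes a short form of 1668 residues without it. At the upstream start the authors' H3K27ac fold was 25.1 and 16.3 in the libraries labelled iMK, above 97.5% and 93.9% of the peaks in the same list. It was 4.59 in ERY replicate 1, above 75.8% of that list, and no peak reached this start in ERY replicate 2. Folds of different lists have different controls, so they were ranked within a list and not compared between lists. At the downstream start H3K27ac peaks were called in all 4 libraries (folds 3.53, 2.78, 5.22 and 4.04 in ERY 1, ERY 2, iMK 1 and iMK 2). H3K4me3 was called at the upstream start in all 4 libraries, with folds of 5.22, 11.95, 10.9 and 3.21 in that order, above 44.9%, 97.9%, 96.8% and 50.3% of the peaks in the same list. At the downstream start it was called in both ERY libraries (folds 5.445 and 3.80) and in iMK replicate 2 (fold 1.996) and not in iMK replicate 1. Over the whole locus H3K4me3 covered 2.23%, 1.54%, 1.54% and 7.54% in the same order of libraries, and the groups overlapped (limma adjusted p = 0.884).

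The 250 bases before the upstream start (chr6:83456393-83456642, minus strand, mm10) are shown because the marks of the cell types differed there, a choice made after the values were seen. Capitals mark matches of the 9 motifs searched on both strands, here all CCGCCC, a GC box of the kind that SP and KLF factors bind. CCGCCC was found upstream of 32.7% of 32841 RefSeq promoters.
Tet3-203 promoter: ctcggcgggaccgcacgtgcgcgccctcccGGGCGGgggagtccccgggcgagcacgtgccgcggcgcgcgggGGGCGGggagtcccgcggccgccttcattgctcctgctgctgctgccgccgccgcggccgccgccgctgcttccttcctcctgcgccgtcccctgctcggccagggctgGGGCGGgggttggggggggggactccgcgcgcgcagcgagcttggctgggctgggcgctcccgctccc
Several distal stretches of this locus were covered in both ERY libraries and unmarked in the libraries labelled iMK. Below is the 300-base window with most matches in the widest of them, in an intron (window chr6:83399191-83399490, plus strand). AGATAA and TGATAA are letters bound by GATA factors and TGTGGT by RUNX factors.
Tet3 intronic window: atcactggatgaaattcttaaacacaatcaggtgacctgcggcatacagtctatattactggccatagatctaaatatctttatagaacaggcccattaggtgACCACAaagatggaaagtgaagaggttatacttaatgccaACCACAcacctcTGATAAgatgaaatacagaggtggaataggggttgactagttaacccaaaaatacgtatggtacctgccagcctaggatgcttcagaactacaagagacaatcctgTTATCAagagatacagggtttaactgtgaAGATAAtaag
This window held AGATAA once, TGATAA at 2 places and TGTGGT at 2 places. Of the other such stretches, the windows in chr6:83360001-83361000 and chr6:83420401-83422600 held AGATAA. Those in chr6:83431201-83433200 and chr6:83445001-83446200 held neither AGATAA nor TGATAA. Among 9069 windows chosen in the same way from all distal ERY-only H3K27ac stretches, 43.9% held AGATAA, 34.8% TGATAA and 49.1% TGTGGT. Among 7627 iMK-only windows the shares were 29.7%, 24.8% and 49.4%.

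**Figure D2:**
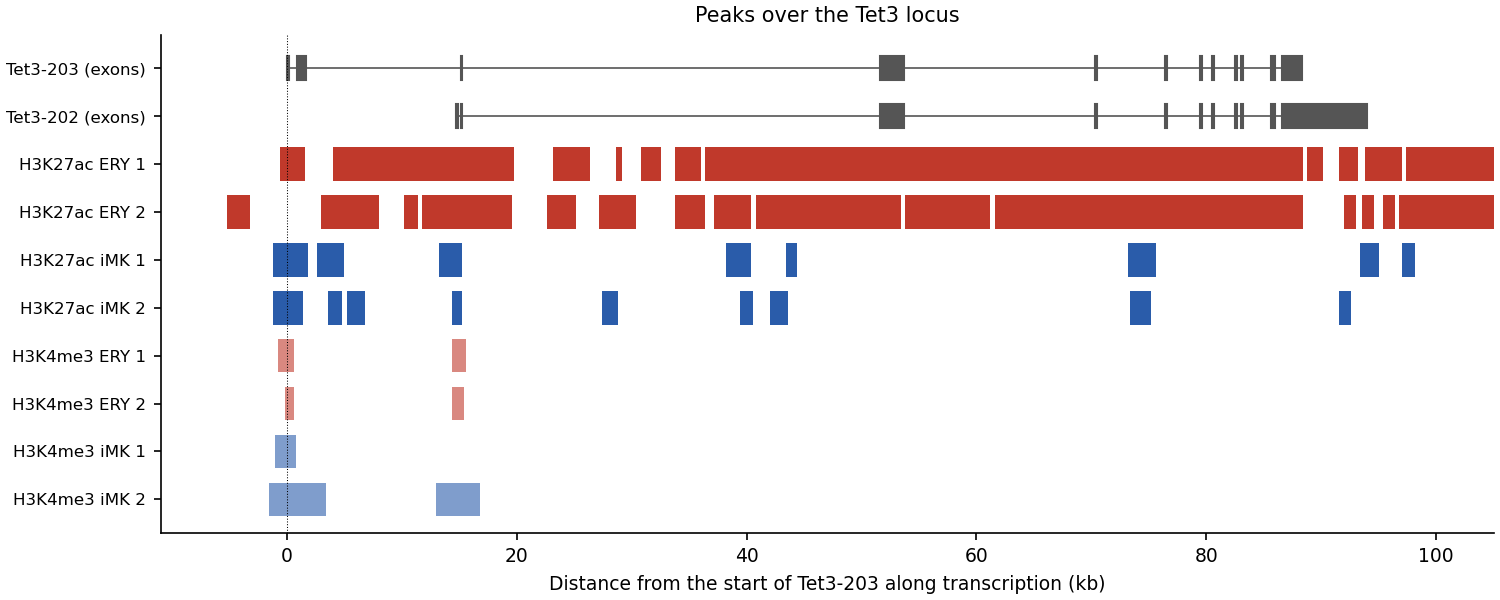
Peaks over the Tet3 locus against distance from the start of Tet3-203 (kb, along transcription), 1 row per library, with the exons of Tet3-203 and Tet3-202 above, drawn at least 0.15 kb wide. The ERY H3K27ac rows (red) fill most of the gene body, the rows labelled iMK (blue) hold separate peaks of at most 3000 bp, and H3K4me3 (paler) sits at the 2 starts.

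Tet2 was marked at its promoter in the libraries labelled iMK alone. TET2, an oxidising enzyme of the same family that lacks a CXXC domain of its own, is encoded on chromosome 3 (133463679 to 133545139, minus strand). H3K27ac covered 0% in both ERY libraries and 5.91% and 9.86% in iMK replicates 1 and 2. The 2 groups did not overlap, with a mean of 7.88% ± 2.79 (SD, n = 2) against no listed peak. The difference was -7.88 percentage points (limma SE 1.61, adjusted p = 0.0401). Tet2, without a listed H3K27ac peak in ERY, entered the test through the libraries labelled iMK alone. A locus without a listed peak held none that passed the authors' threshold, and the mark may still have been present below it. Tet2 no longer passed without ERY replicate 1 or 2 (limma adjusted p = 0.222 and 0.219), without the trend (0.0597) or without the filter on genes (0.0798), at the same difference.

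At the Tet2 start (133544390 for Tet2-201, 1912 residues) H3K27ac peaks of 3400 and 4400 bp had folds of 14.5 and 12.8. A second region, farther upstream (chr3:133548001-133550600), was called in both libraries labelled iMK with folds of 4.12 and 3.45. Intronic peaks of 1000 bp in replicate 1 and 2400 bp in replicate 2 lay at different places and were not shared. H3K4me3 was called over the start in both libraries labelled iMK (folds 8.01 and 4.55) and in neither ERY library. H3K4me3 locus coverage was 0% and 0.986% in ERY against 1.58% and 3.35% in the libraries labelled iMK, without overlap, and did not pass (limma adjusted p = 0.772). The ERY replicate 2 value came from 1 peak (chr3:133474601-133475600, fold 2.96) deep in the gene body, 69.3 kb from the start, where a transcript with a retained intron begins. That peak put the Tet2 promoter in the unreplicated class for H3K4me3, and with coding start sites alone it was iMK-only.

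The Tet2 promoter was the most CpG-rich among those of the 7 genes. Its 250 bases before the start held 51 CpG, an observed over expected ratio of 1.19, higher than in 99.3% of RefSeq promoters, whose median was 0.374. The sequence (chr3:133544391-133544640, minus strand) is shown because H3K27ac marked it in 1 cell type only, and capitals again mark motif matches.
Tet2 promoter: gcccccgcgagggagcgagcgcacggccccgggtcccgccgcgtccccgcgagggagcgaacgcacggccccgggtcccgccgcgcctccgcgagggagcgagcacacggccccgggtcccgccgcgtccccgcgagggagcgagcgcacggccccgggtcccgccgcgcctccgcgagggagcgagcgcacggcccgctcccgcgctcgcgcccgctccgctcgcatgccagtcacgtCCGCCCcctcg
The window below lies in the upstream region called in both libraries labelled iMK (chr3:133549001-133549300, plus strand) and held TGTGGT at 2 places, as 49.4% of 7627 iMK-only windows did at 1 or more.
Tet2 upstream window: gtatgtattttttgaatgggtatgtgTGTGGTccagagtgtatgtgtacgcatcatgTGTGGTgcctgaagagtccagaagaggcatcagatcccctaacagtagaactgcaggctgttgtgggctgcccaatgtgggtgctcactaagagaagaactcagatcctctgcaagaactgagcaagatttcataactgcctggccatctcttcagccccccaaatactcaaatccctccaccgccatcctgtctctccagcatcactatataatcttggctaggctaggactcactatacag

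Tet1 was the least marked member. Its product, the first of the oxidising enzymes to be described, is best known from pluripotent and germ cells, and its gene lies on chromosome 10 (62804570 to 62908996, minus strand). Neither ERY library nor iMK replicate 1 held a peak of either mark in this locus. iMK replicate 2 held 3 H3K4me3 peaks and 3.08% coverage, and 1 of these peaks, 5000 bp wide, touched the promoter of Ccar1 beside the locus. The other peaks touched starts of transcripts outside the coding basic set, and no peak touched the starts of Tet1-201 or Tet1-206, which encode 2007 and 2039 residues. The peak at chr10:62885801-62887400 (fold 2.23, above 19.6% of its list) overlapped the RefSeq promoter of Tet1 (chr10:62887275-62887574). For both marks together Tet1 thus rested on the library with the longest H3K4me3 list.

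Dnmt3a had more H3K27ac in the libraries labelled iMK, at 3 separate places. DNMT3A, a de novo methyltransferase, is encoded on chromosome 12 (3806007 to 3914443, plus strand). H3K27ac covered 0.779% and 0% of the locus in ERY against 4.36% and 3.58% in the libraries labelled iMK. The groups did not overlap, and the means were 0.389% ± 0.551 and 3.97% ± 0.551 (SD, n = 2 each). The difference of -3.58 percentage points passed (limma SE 0.49, adjusted p = 0.019). It did not pass with any 1 of the 4 libraries left out (limma adjusted p = 0.0929 without ERY replicate 1, 0.107 without ERY replicate 2, 0.113 without iMK replicate 1 and 0.0919 without iMK replicate 2), at differences of -3.19 to -3.97, nor with only peaks of at least the median fold (0.0672).

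Dnmt3a has an upstream promoter for the long protein DNMT3A1 (908 residues, starts 3807030 and 3807160) and an internal promoter for the short DNMT3A2 (689 residues, starts 3891728 and 3891744). H3K27ac at the internal promoter was called in both libraries labelled iMK (folds 20.3 and 7.13) and in ERY replicate 1 (fold 4.45), and H3K4me3 was called there in both libraries labelled iMK (folds 5.11 and 2.72) and in neither ERY library. The upstream promoter was called for H3K27ac in iMK replicate 1 alone (fold 16.8) and for H3K4me3 in iMK replicate 2 alone (fold 3.88). No ERY library held a peak of either mark at the upstream promoter. Between these promoters, H3K27ac peaks around the second exon of the long transcript (chr12:3833801-3835400, folds 7.39 and 5.76) and in an intron (chr12:3855601-3857200, folds 5.12 and 3.15) were called in both libraries labelled iMK and in no ERY library. H3K4me3 covered 0% in both ERY libraries and 0.779% and 5.29% in the libraries labelled iMK, which differed from each other by more than iMK replicate 1 did from ERY (limma adjusted p = 0.772).

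The sequences before the upstream start (chr12:3806780-3807029) and the internal start (chr12:3891478-3891727), both on the plus strand, are set side by side because the marks used them unequally. They held 37 and 16 CpG, with GC contents of 83.6% and 73.6%.
Dnmt3a upstream promoter: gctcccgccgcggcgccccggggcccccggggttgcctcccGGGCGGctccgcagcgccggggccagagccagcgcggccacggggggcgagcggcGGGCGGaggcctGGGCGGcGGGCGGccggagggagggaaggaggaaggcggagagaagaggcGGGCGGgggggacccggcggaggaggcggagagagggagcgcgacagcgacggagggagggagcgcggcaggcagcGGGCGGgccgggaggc
Dnmt3a internal promoter: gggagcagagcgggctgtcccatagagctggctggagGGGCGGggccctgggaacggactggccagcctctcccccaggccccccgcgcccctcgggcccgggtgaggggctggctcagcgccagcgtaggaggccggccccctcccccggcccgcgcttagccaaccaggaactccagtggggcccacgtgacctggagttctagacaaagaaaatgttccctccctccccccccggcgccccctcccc
Every capital run in these promoters is CCGCCC or its reverse complement, at 6 places in the first and 1 in the second. The next lines give the windows with most matches in the 2 distal regions (chr12:3834251-3834550 and chr12:3856001-3856300, plus strand), both in introns.
Dnmt3a first intronic window: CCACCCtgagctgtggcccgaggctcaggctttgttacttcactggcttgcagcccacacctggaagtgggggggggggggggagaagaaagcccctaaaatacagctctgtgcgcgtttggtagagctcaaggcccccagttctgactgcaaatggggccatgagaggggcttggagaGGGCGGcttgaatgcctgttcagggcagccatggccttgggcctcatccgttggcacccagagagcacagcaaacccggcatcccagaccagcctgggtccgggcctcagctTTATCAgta
Dnmt3a second intronic window: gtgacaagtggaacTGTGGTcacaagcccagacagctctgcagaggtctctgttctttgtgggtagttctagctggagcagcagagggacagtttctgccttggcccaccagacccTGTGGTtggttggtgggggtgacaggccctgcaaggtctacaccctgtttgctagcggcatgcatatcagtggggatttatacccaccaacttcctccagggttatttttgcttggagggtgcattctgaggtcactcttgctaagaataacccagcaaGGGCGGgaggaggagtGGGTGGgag
The first held TGATAA (in 24.8% of the 7627 iMK-only windows), CCACCC, the core of the sites that KLF factors bind (49.0%), and CCGCCC (14.8%). The second held TGTGGT at 2 places, CCACCC once and CCGCCC once.

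Dnmt3b carried both marks at its promoter in the libraries labelled iMK only. DNMT3B, the other de novo methyltransferase, is encoded on chromosome 2 (153649450 to 153687730, plus strand). Its promoter was called for H3K27ac (folds 5.31 and 3.19) and for H3K4me3 (folds 8.48 and 3.97) in both libraries labelled iMK and in no ERY library, so it was iMK-only for both marks. The H3K27ac peaks there had low ranks, with folds above 44.7% and 13.9% of their lists, and the promoter was called in no library when only peaks with at least the median fold were kept. H3K27ac locus coverage was 2.06% and 0% in ERY against 1.72% and 2.06% in the libraries labelled iMK, so the groups overlapped and the difference did not pass (-0.858 percentage points, limma SE 0.846, adjusted p = 0.454). The ERY replicate 1 value came from 1 peak inside the gene, 25.95 kb from the start (chr2:153674801-153676000, fold 2.28). The equal number of top peaks left this peak out, and the difference then passed (-1.89 points, limma adjusted p = 0.0109). In that fit Dnmt3b had no listed peak in ERY and entered the test through the libraries labelled iMK alone. H3K4me3 coverage was 0% in both ERY libraries and 2.06% and 3.43% in the libraries labelled iMK (limma adjusted p = 0.772). The 250 bases before the start (chr2:153649200-153649449, plus strand) held 21 CpG and CCGCCC at 3 places.
Dnmt3b promoter: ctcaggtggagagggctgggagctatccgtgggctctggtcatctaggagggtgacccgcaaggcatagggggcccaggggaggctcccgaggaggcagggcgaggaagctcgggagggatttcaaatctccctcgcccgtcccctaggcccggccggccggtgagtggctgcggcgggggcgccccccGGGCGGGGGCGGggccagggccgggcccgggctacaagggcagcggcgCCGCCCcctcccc

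**Figure D3:**
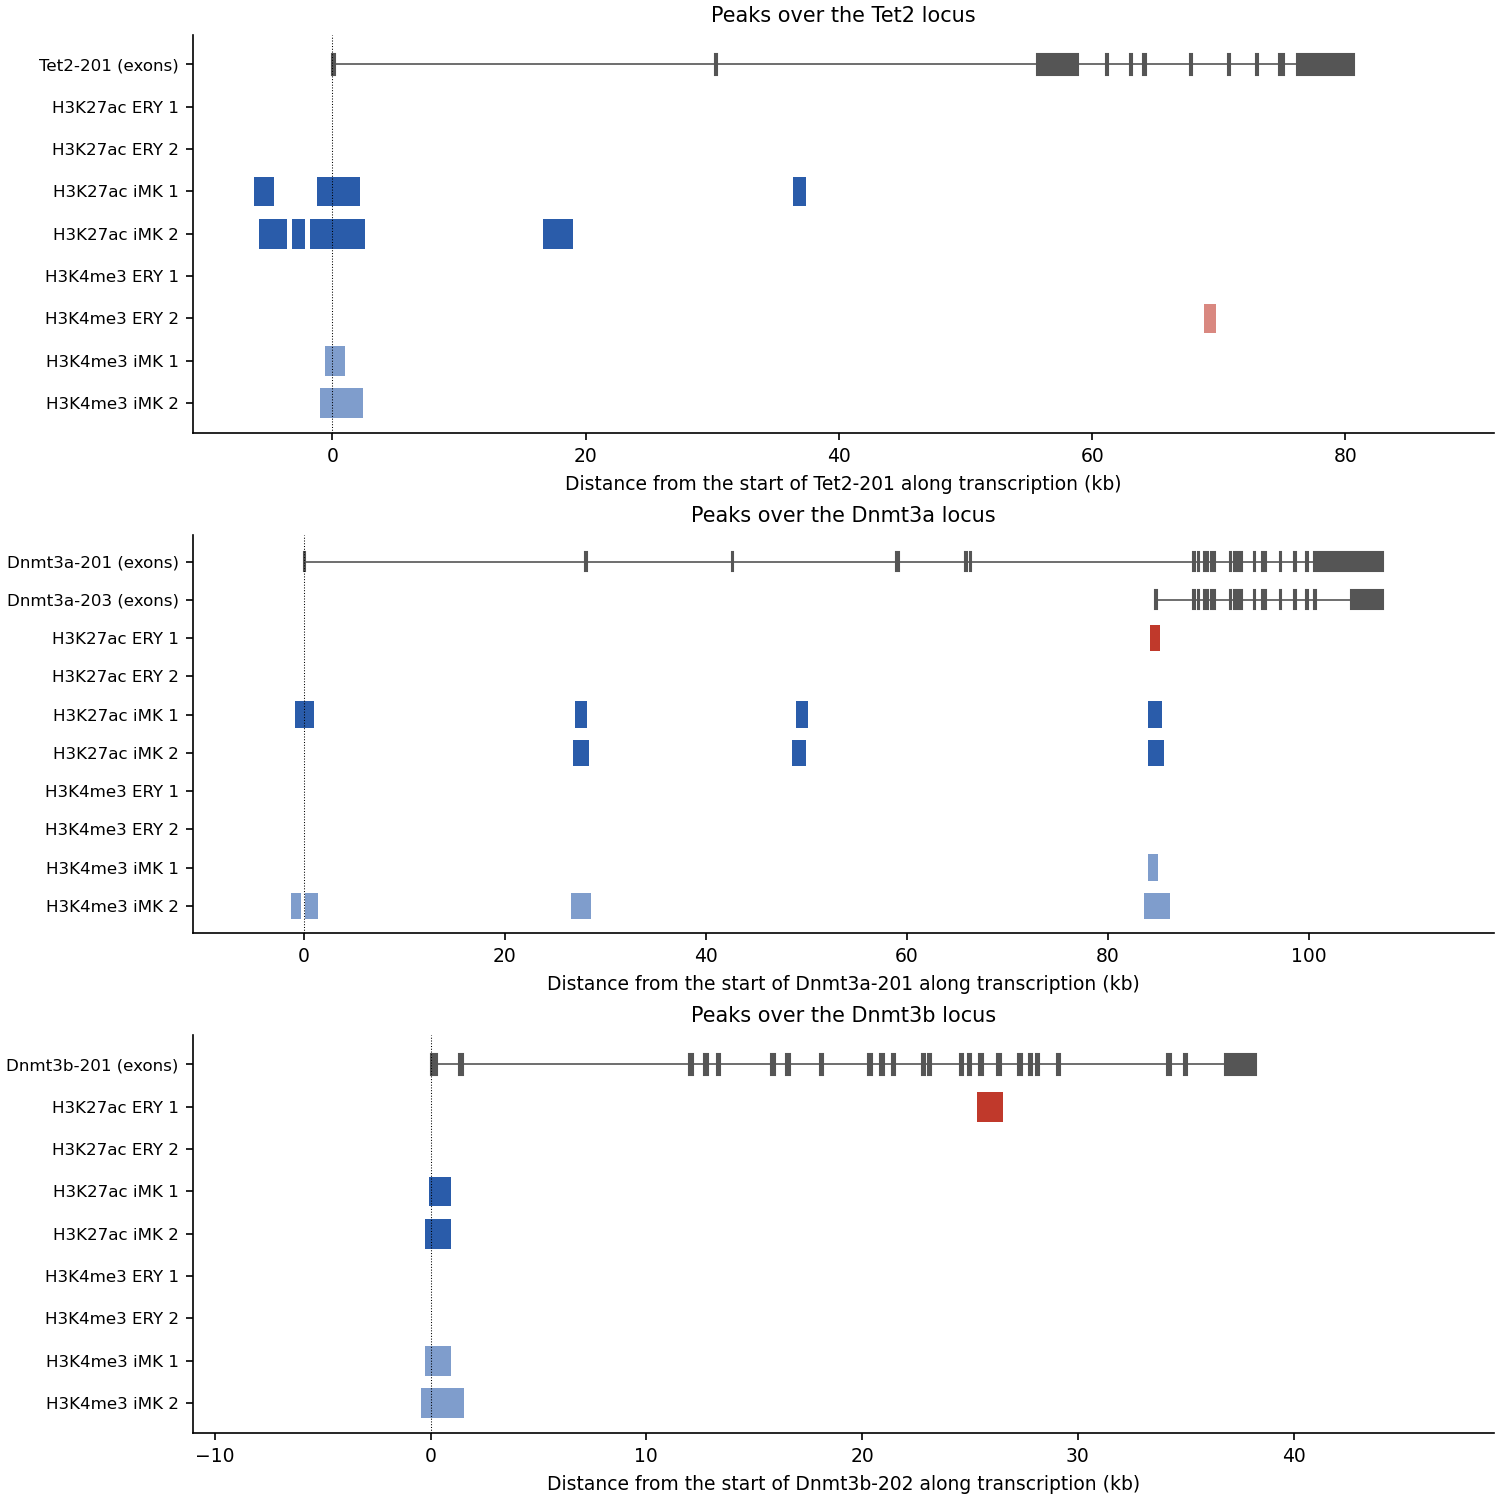
Peaks over the Tet2, Dnmt3a and Dnmt3b loci against distance from the first coding start (kb, along transcription), with exons above (at least 0.15 kb wide), red for ERY, blue for libraries labelled iMK, paler for H3K4me3. Promoter peaks of Tet2 and Dnmt3b appear only in blue rows, and the ERY rows hold single peaks at the internal Dnmt3a start, inside Dnmt3b and far inside Tet2.

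Dnmt1 and Uhrf1, the pair that copies methylation at replication, each had a promoter that carried the marks in all 8 libraries. DNMT1, the maintenance methyltransferase, is encoded on chromosome 9 (20907209 to 20959888, minus strand). H3K27ac covered 6.88% and 5.50% of its locus in ERY against 14.6% and 14.9% in the libraries labelled iMK, with no overlap. The difference was -8.53 percentage points (limma SE 1.08, adjusted p = 0.0166). The somatic promoter (starts 20952605 to 20952979, up to 1620 residues) was called in every library, with H3K27ac folds above 71.1% and 56.3% of the peaks in the same list for ERY, and above 79.2% and 75.8% for the libraries labelled iMK. Inside the gene, an intronic stretch (chr9:20945401-20946800) was covered in both libraries labelled iMK and in neither replicate of ERY. Separate H3K27ac regions called in the libraries labelled iMK alone lay upstream of the gene, at chr9:20960801-20963200 and chr9:20966001-20968200. The first came within 1 kb of another coding start, that of Dnmt1-202 (20959888), in iMK replicate 1 alone (fold 2.87). H3K4me3 was not called at that start in any library. Both regions touch the gene body of S1pr2 (20962361 to 20976781), a lipid receptor gene beside Dnmt1 that was named after its values were seen. With no flank the difference was -3.61 points and did not pass (limma adjusted p = 0.171), and it did not pass without iMK replicate 1 or 2 (0.077 and 0.0833, at -8.67 and -8.39). With only peaks of at least the median fold it was -0.138 points (limma adjusted p = 0.897). H3K4me3 formed 1 region at the somatic promoter, and covered 2.48% and 1.65% in ERY against 2.75% and 5.23% in the libraries labelled iMK (limma adjusted p = 0.919). The H3K4me3 folds ranked above 80.8% and 94.1% of the same list for ERY, and above 43.2% and 55.5% for the libraries labelled iMK.

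UHRF1, which reads half-methylated DNA and recruits DNMT1, is encoded on chromosome 17 (56303321 to 56323486, plus strand). H3K27ac covered 22.4% and 12.9% in ERY against 10.5% and 11.5% in the libraries labelled iMK, without overlap. The ERY replicates differed from each other by more than ERY replicate 2 did from the other cell type, and the difference of 6.72 percentage points did not pass (limma SE 3.94, adjusted p = 0.264). Without ERY replicate 2 it passed, at 11.5 points (limma adjusted p = 0.0448), and without ERY replicate 1 it was 1.99 points and did not pass (0.241). With only peaks of at least the median fold it was 0.498 points. The promoter was called in all 4 libraries, with folds above 73.1% and 85.9% of the peaks in the same list for ERY, and above 72.3% and 72.7% for the libraries labelled iMK. In ERY replicate 1 this peak was 7000 bp wide and ended 5.08 kb inside the gene, and in replicate 2 a separate peak of 2000 bp (chr17:56306601-56308600) covered the same intronic stretch, which no library labelled iMK covered. H3K4me3 covered 9.96% and 4.48% in ERY against 5.48% and 15.9% in the libraries labelled iMK, and the groups overlapped (limma adjusted p = 0.952). The window with most matches in the stretch that both ERY libraries covered (chr17:56306701-56307000, plus strand) held 1 AGATAA and 1 TGTGGT.
Uhrf1 intronic window: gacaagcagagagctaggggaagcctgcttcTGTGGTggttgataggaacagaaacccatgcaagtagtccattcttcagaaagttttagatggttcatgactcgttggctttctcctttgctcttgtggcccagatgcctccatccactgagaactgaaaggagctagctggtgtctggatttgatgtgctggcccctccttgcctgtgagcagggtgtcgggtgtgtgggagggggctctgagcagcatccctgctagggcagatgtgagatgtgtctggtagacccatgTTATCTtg

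**Figure D4:**
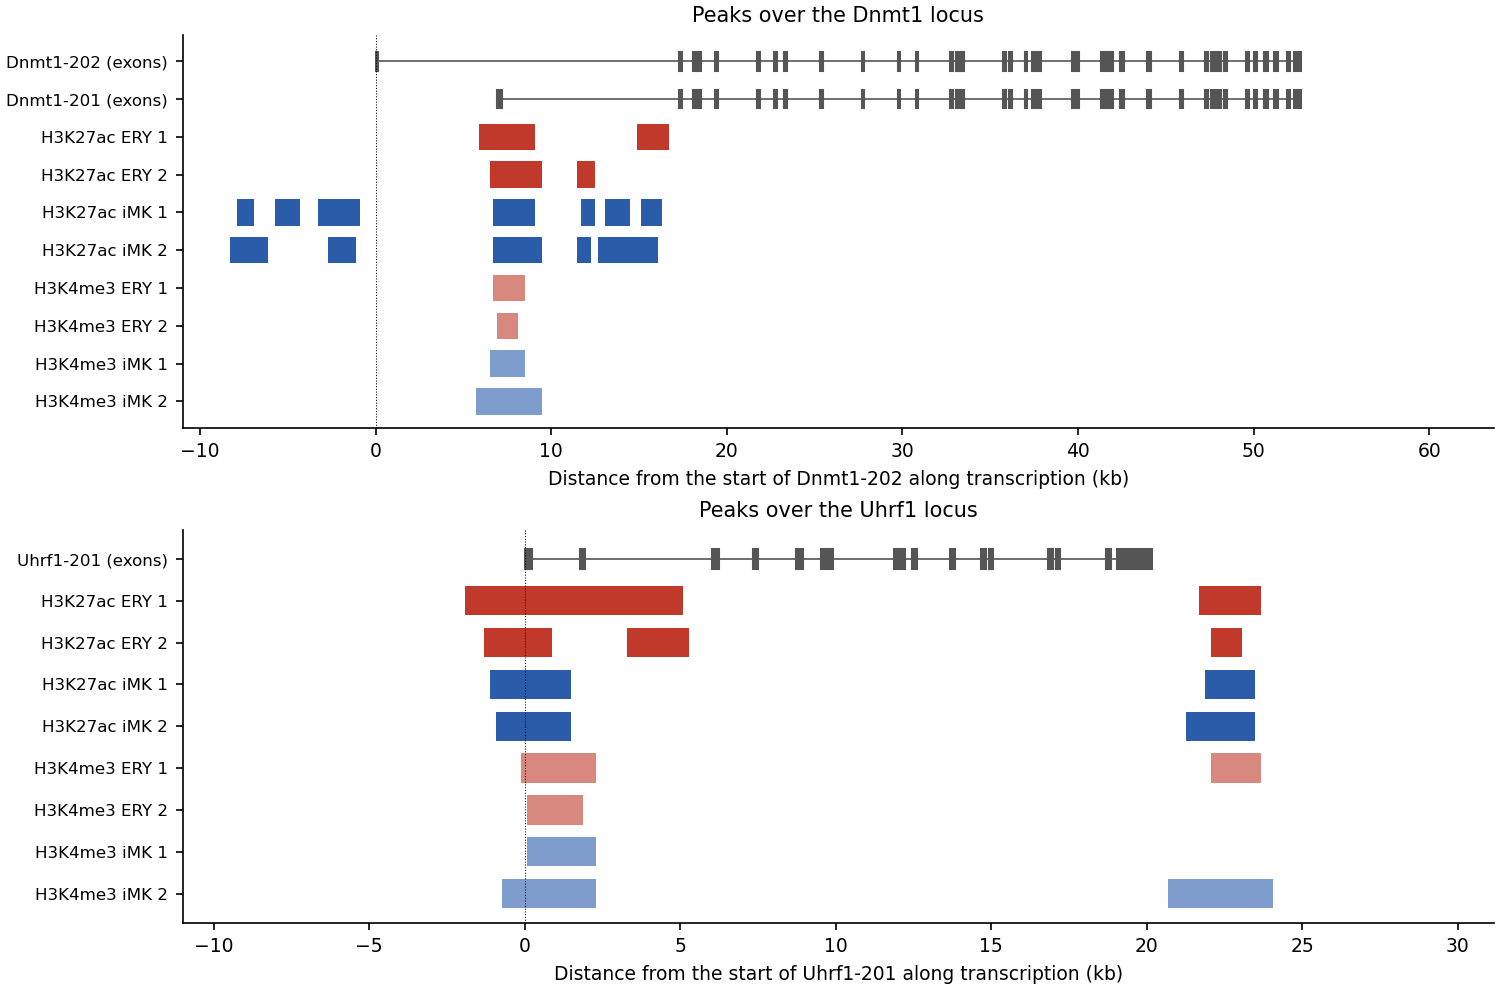
Peaks over the Dnmt1 and Uhrf1 loci against distance from the first coding start (kb, along transcription), with exons above (at least 0.15 kb wide), red for ERY, blue for libraries labelled iMK, paler for H3K4me3. Every row has a peak at the somatic Dnmt1 start and at the Uhrf1 start, and the peaks left of the first Dnmt1 start are blue only.

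Promoter classes placed the members as follows. A promoter was any annotated start with 1 kb on each side, called when any base of a peak fell in it, and no test was made. For H3K27ac, 3 of the 7 members were shared by all 4 libraries (Dnmt1, Uhrf1 and Tet3), beside 36.0% of all protein-coding genes. Another 2 were iMK-only (Tet2 and Dnmt3b), beside 8.56%, and 0 were ERY-only, beside 2.17%. Dnmt3a was unreplicated, and Tet1 had no call, as 47.2% of genes. For H3K4me3, 3 were shared (the same 3 genes), beside 24.6%, 2 were iMK-only (Dnmt3a and Dnmt3b), beside 4.89%, and 0 were ERY-only, beside 0.378%. Tet1 and Tet2 were unreplicated, and no member was without a call, beside 46.3% of genes. Among 7 genes these shares were not set apart from the background, and nothing is read from them about the family.

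H3K4me3 locus coverage passed for none of the 7 members, as for 0% of the 13561 genes tested in each direction (limma, adjusted p from 0.772 to 0.952 for the members). At an unadjusted p under 0.05, 482 of all genes passed. Both libraries labelled iMK lay above both ERY libraries at 4 members (Dnmt1, Dnmt3a, Dnmt3b and Tet2), beside 20.4% of genes tested, and the reverse held for 0 members, beside 2.71%. iMK replicate 2 gave the highest value at all 7 members. With this library left out the Tet3 and Uhrf1 differences changed sign, to 0.343 and 1.74 percentage points, and did not pass. Dnmt3a and Dnmt3b, both without an H3K4me3 peak in ERY, passed without iMK replicate 1 (limma adjusted p = 0.00129 and 0.00125) and without iMK replicate 2 (0.0483 and 0.0467), and Tet1 passed without iMK replicate 1 (0.00125). In these fits the only spread within a group was that of 2 ERY libraries at 0.

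The genes that work with these enzymes were counted from 6 lists, 45 genes in all. For H3K27ac, 42 had coverage, and 7 passed as higher in ERY and another 4 with more in the libraries labelled iMK. Over all 14467 genes tested these calls were 22.0% and 17.2%, so both counts stood below the background share and nothing is read from them about the lists. For H3K4me3, 41 had coverage and 0 passed by limma in either direction. The median H3K27ac difference over the 42 genes was 1.48 percentage points. The 7 became 4 without ERY replicate 1, 5 without ERY replicate 2 and 1 without either library labelled iMK. The 4 became 0 without ERY replicate 2 and 3 to 6 without the others. Values per library follow for the genes that passed.

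Among maintenance and de novo partners, 1 of 8 was higher in ERY and another 2 were higher in the libraries labelled iMK. Usp7, which encodes a deubiquitinase that stabilises DNMT1 and UHRF1, had 71.2% and 67.8% covered in ERY against 4.89% in each library labelled iMK, a difference of 64.6 points (limma SE 2.5, adjusted p = 0.0065). Its ERY values stood close to those of Tet3. Dnmt3l, the catalytically inactive partner of the de novo enzymes, had 0% in both ERY libraries and 5.76% and 7.68% in the libraries labelled iMK (limma adjusted p = 0.0158). Dppa3, whose product protects maternal methylation in the early embryo, had 0% in ERY against 19.3% and 28.5% in the others, with no H3K27ac promoter call in any library (limma adjusted p = 0.0246). Dnmt3l and Dppa3, without a listed H3K27ac peak in ERY, entered the test through the libraries labelled iMK alone.

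Of the 7 methyl-CpG reader genes, 2 were higher in ERY and none the other way (0). Mbd2 had 35.7% and 31.3% covered in ERY against 8.72% and 7.95% (limma adjusted p = 0.00984), and Zbtb38, a zinc finger reader, 12.4% and 10.9% against 2.89% and 4.66% (limma adjusted p = 0.0226). The promoters of both genes were called for H3K27ac in all 4 libraries.

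Base excision repair follows TET oxidation, and 1 of its 10 genes passed in each direction. Neil2, a glycosylase gene, had 18.5% and 17.2% covered in ERY against 5.73% and 5.09% (limma adjusted p = 0.00992). Polb, the repair polymerase gene, had 2.65% and 3.53% in ERY against 9.71% and 12.4% (limma adjusted p = 0.0264). Neil2 had no call at its promoter in any library, so its coverage came from elsewhere in the locus.

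Of the 10 genes of TET partners and 2-oxoglutarate metabolism, 1 was higher in ERY and 1 was higher the other way. The stress-induced Gadd45a had 48.6% and 65.5% covered in ERY against 16.1% and 25.04% (limma adjusted p = 0.0449). Its relative Gadd45b had 0% in both ERY libraries and 30.7% and 37.1% in the others (limma adjusted p = 0.00879), and its promoter was iMK-only for both marks. These 2 genes of one family thus passed in opposite directions, and another listed gene of that family did not pass. Gadd45b, without a listed H3K27ac peak in ERY, entered the test through the libraries labelled iMK alone.

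Among 7 methyl donor genes only Mtr, encoding methionine synthase, passed, with 9.85% and 8.60% in ERY against 2.93% and 2.10% (limma adjusted p = 0.016). Of 3 cytosine deaminase genes Apobec3 passed, with 56.3% and 37.8% in ERY against 12.2% and 11.8% (limma adjusted p = 0.0448). The other 2 deaminase genes did not pass.

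**Figure D5:**
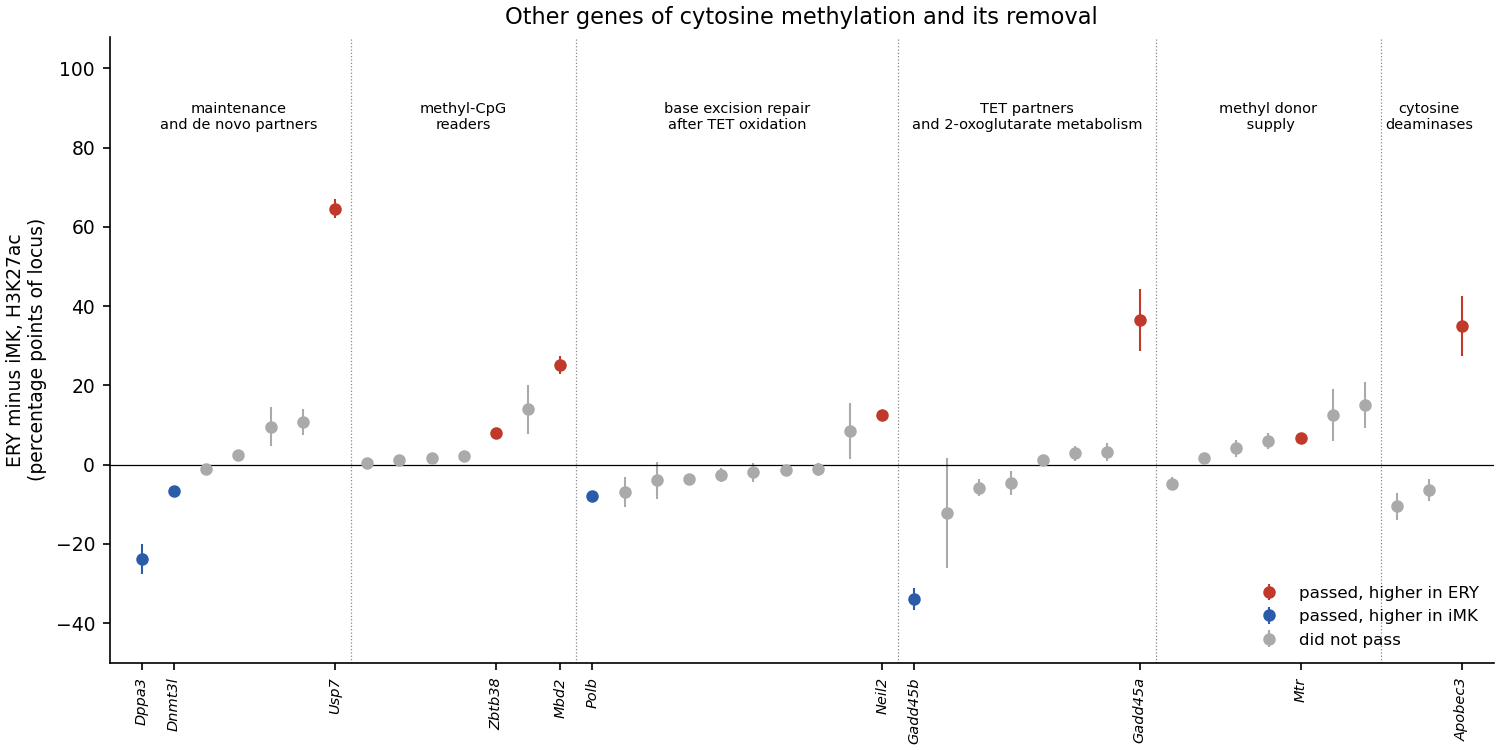
Difference in H3K27ac locus coverage (ERY minus iMK, percentage points, bars are limma SE) for the 42 of 45 pathway genes with a peak, ordered within each list and named where they passed, red where the gene passed as higher in ERY, blue as higher in the libraries labelled iMK, grey where it did not pass. Usp7 stands highest at 64.6 and Gadd45b lowest at -33.9.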

How the data were processed

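The authors immunoprecipitated H3K27ac and H3K4me3, aligned reads to mm10, called broad peaks in each library and deposited the lists. For ChIP-seq in general the study describes mapping by Bowtie and peak calling by MACS, whereas the processing notes of these samples name Bowtie 1.0.0 and SICER 1.1, so which caller made these lists was not settled. Each deposited peak carries a fold over control, a ratio, and a p-value and q-value, every q-value being under 0.01 and every edge on a multiple of 200 bp. The lists hold no read counts, so depth is unknown and peak number limits precision. Samples were grouped by the labels, and replicates numbered in accession order. Coverage of each protein-coding locus of GENCODE vM21 was computed in Python 3.11.15 and compared by limma 3.58.1 (R 4.3.3) with a variance trend. The code was run on simulated, normally distributed values with large planted changes, which does not measure its power on these data. With 2 libraries against 2 an exact permutation test cannot go below p = 0.333. The members and lists were chosen with earlier results of these data known. All 7 members are named, and of the pathway lists at most 4 genes per direction that passed, with 1 listed gene not reported here. Alternatives covered flank, peak threshold, list length, scale, normalisation, trend, filter, promoter window and left-out libraries, and coding start sites alone were added after seeing the data. RefSeq promoters matched all 7 members, and windows were read from the mm10 sequence. Searched on both strands were the GATA motifs AGATAA and also TGATAA, the ETS motif CCGGAA, the AP-1 motif TGAGTCA, the KLF motif CCACCC, the GC box CCGCCC, the E2F motifs TTTCCCGC and also TTTGGCGC, and the RUNX motif TGTGGT. Distal windows were those with most matches of their region, stepped by 10 bases. The 10 inputs were not used here.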

Additional observations from a re-analysis of the deposited data

How the results depend on the processing

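Among alternative fits of single members for H3K27ac, 59 kept the direction and the side of the threshold, 14 no longer passed, 2 newly passed and 2 reversed. For H3K4me3 the numbers were 79 kept, 5 newly passed and 5 reversed, and of the counts 144 stayed within 1.5 times and 20 did not. With only peaks of at least the median fold, H3K27ac members higher in ERY went from 1 to 0, higher in the libraries labelled iMK from 3 to 1, iMK-only promoters from 2 to 1, and shared H3K4me3 promoters from 3 to 0. With equal numbers of top peaks iMK-only H3K4me3 promoters went from 2 to 1 and the Uhrf1 H3K4me3 difference turned to 0.747 percentage points. With quantile normalisation the Dnmt3b H3K27ac difference turned to 0.259, and for H3K4me3 Tet2 turned to 0.0936 and Uhrf1 to 0.372, while pathway genes higher in the libraries labelled iMK were 8 for H3K27ac and 1 for H3K4me3. Leaving out 1 library gave 1 to 2 H3K27ac members higher in ERY and 1 to 1 higher in the libraries labelled iMK, 1 to 5 pathway genes higher in ERY and 0 to 6 the other way, and a Dnmt3b difference of -1.89 to 0.172. For H3K4me3 it gave 0 to 3 members and 0 to 6 pathway genes higher in the libraries labelled iMK, a Tet3 difference of -5.66 to 0.343 and a Uhrf1 difference of -8.71 to 1.74. The cause of these changes was not tested. No paired analysis was possible because the labels number no replicates. Peak lists limit the values, since a region below the authors' threshold counts as 0.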

Other observations

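Among all protein-coding genes, those with a pattern most like Tet3 over the 8 libraries were Alg9, Gramd4 and Selenbp1, at Euclidean distances of 5.77, 7.22 and 8.15 percentage points. Those nearest to Tet2 were Sntb2, Nrp1 and B4galt6 (1.37, 1.375 and 1.72), and those nearest to Dnmt1 were Ehd4, Cdk19 and Cept1 (2.97, 3.13 and 3.40). Dnmt3a lay nearest to H2-Ob (1.18), Dnmt3b to Fgf20 (1.41) and Uhrf1 to Fam57b (3.29). Tet1 lay within 0.011 points of Tnfaip8l3, Zfp964 and Ptger1, all covered in iMK replicate 2 for H3K4me3 (3.07% to 3.08%) and in no other library.

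Promoters of other coding genes lay in the examined loci. Bola3, downstream of Tet3, had an H3K27ac peak of 11800 bp in ERY replicate 1 (fold 9.29) and of 13000 bp in ERY replicate 2 (fold 5.61), and its promoter was also called in the libraries labelled iMK. Kdm4b, a histone demethylase gene downstream of Uhrf1, was called for H3K27ac in all 4 libraries and for H3K4me3 in ERY replicate 1 and iMK replicate 2. Eif3g beside Dnmt1, Arrdc5 beside Uhrf1 and Dnmt3c, a germline methyltransferase gene beside Dnmt3b, had no promoter call of either mark in any library.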
